A study of Saccharomyces cerevisiae with 12 samples.

Results

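The mRNA levels of 10 heat shock protein and chaperone genes of budding yeast were followed from exponential growth into stationary phase, in a wild type and in strains that lack a single intron. The genes were chosen by systematic name as members of the classical heat shock families. They are HSP12 (YFL014W), HSP26 (YBR072W), HSP42 (YDR171W), HSP30 (YCR021C), HSP104 (YLL026W), HSP78 (YDR258C), HSP82 (YPL240C), HSC82 (YMR186W), SSA1 (YAL005C) and SSA4 (YER103W). They are 10 of the 7126 features in the count table, and all 10 were among the 6068 genes that passed the filter on low counts. The 12 libraries came from Saccharomyces cerevisiae of the BY background in 3 genotypes: a wild type, mms2Δi, which lacks the intron of MMS2 (a ubiquitin-conjugating enzyme variant of DNA damage tolerance), and ysf3Δi, which lacks the intron of YSF3 (a subunit of the SF3b splicing complex). Each genotype was represented by 2 strains, and each strain was sampled once in log phase and once at 48 h in stationary phase, so that the 6 groups held 2 libraries each. All cultures grew in synthetic minimal medium with 2% glucose, supplemented with histidine, leucine, uracil and lysine, and the labels name no heat treatment in any group. The labels do not say whether the strains of a genotype were made independently, so the p-values measure the spread between these samples only.

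Total RNA was depleted of ribosomal RNA and sequenced, and library totals ran from 4871513 to 16581925 counts. In bulk samples, fewer cells with an mRNA and less of it per cell cannot be told apart. Scaling used the counted genes alone, so every rise or fall is relative to the other RNAs of a library. A change in total mRNA per cell between the phases was not measured. The wild-type strain 1 stood apart from the other 5 strains in mating-type genes. In log phase the 5 alpha-specific genes summed to 2538 CPM (counts scaled to a common library size) in this strain and to 24.4 to 41.0 CPM in the others, whereas the 7 a-specific genes summed to 34.6 CPM against 1483 to 2039 CPM; at 48 h the alpha-specific sum was 125 against 30.1 to 45.4 CPM and the a-specific sum 80.5 against 241 to 268 CPM. The a-factor gene MFA1 was at 0 in all 12 libraries. What part this difference has in comparisons with the wild type was not tested. Values without this strain are given for the wild-type phase change, and for the differences from the wild type of the genes named there. A count per gene does not check that an intron is missing. MMS2 itself was at 20.3 to 26.4 CPM in the mms2Δi libraries and 15.2 to 21.9 CPM in the rest, and YSF3 at 2.22 to 4.06 CPM in the ysf3Δi libraries and 1.62 to 3.26 CPM in the rest. The deposited FPKM (counts scaled by gene length and library total) imply a length of 403 bases for MMS2 and only 3 for YSF3. Whether the counts cover the whole of each gene was not checked, so the low YSF3 values may not reflect its expression.

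Heat shock proteins bind unfolded or aggregated proteins and return them to a folded state, hold them, or pass them to degradation. In budding yeast their genes are driven mainly by the trimeric activator Hsf1, which binds heat shock elements made of inverted nGAAn units, and by the paired activators Msn2 and Msn4, which bind the stress response element. Small heat shock proteins hold substrates without ATP, Hsp100 disaggregases pull proteins out of aggregates, Hsp70 proteins bind exposed hydrophobic stretches in cycles of ATP hydrolysis, and Hsp90 proteins finish the maturation of kinases, receptors and other clients. Entry into stationary phase, when glucose and then ethanol run out, is a classical setting in which many of these genes are induced without heat.

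Each of the 10 genes is a single uninterrupted coding segment with no intron and no overlapping RefSeq gene in the R64 assembly. On the plus strand lie HSP12 at chrVI:107256-107585, HSP26 at chrII:382030-382674, HSP42 at chrIV:806621-807748, HSP104 at chrXII:88623-91349, HSC82 at chrXIII:632355-634472 and SSA4 at chrV:364589-366517. On the minus strand lie HSP30 at chrIII:156109-157107, HSP78 at chrIV:971808-974243, HSP82 at chrXVI:96496-98625 and SSA1 at chrI:139503-141431. The sequence before each start codon was searched for both kinds of site, in the 300 bases upstream, on both strands. The stress response element was searched as AGGGG or CCCCT, and the heat shock element of 2 units as GAANNTTC or TTCNNGAA, with overlapping matches of these 2 forms joined into elements of 3 units. A stress response element was present in 22.2% of the 6001 windows of this length in the genome and in the windows of 7 of the 10 genes; at least 2 were present in 3.45% of windows and in those of 5 of the 10. A heat shock element of 2 units was present in 22.4% of windows and in those of 7 of the 10 genes, and an element of 3 units in 0.867% of windows and in those of 4 of the 10, namely HSP42, HSP104, HSP78 and SSA1. Both kinds were present in 4.57% of windows and in those of 6 of the 10 genes. No heat shock match overlapped a stress response match. The windows of HSP26 and HSP30 held neither, which says only that these letters are not in those 300 bases.

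Parts of 5 windows are shown, from 300 to 101 bases before the start codon, because these genes span the range of mRNA changes: the genes with the largest rises, HSP12 at chrVI:106956-107155 and HSP26 at chrII:381730-381929, the Hsp90 pair that moved in opposite directions, HSP82 at chrXVI:98726-98925 and HSC82 at chrXIII:632055-632254, and HSP104 at chrXII:88323-88522, which has 1 element of 3 units and 3 stress response elements. Coordinates and sequences are from the RefSeq assembly R64 (sacCer3), read 5′ to 3′ on the strand of the gene, which is the minus strand for HSP82 and the plus strand for the other 4 genes. Capitals mark the motif matches.
HSP12: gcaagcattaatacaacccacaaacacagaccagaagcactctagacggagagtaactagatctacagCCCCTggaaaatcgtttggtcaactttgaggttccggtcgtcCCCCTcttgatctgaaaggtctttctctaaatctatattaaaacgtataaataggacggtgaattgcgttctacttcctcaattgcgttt
HSP26: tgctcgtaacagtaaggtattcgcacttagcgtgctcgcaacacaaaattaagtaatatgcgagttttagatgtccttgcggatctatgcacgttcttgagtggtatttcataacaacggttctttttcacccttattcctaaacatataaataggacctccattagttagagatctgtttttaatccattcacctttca
HSP104: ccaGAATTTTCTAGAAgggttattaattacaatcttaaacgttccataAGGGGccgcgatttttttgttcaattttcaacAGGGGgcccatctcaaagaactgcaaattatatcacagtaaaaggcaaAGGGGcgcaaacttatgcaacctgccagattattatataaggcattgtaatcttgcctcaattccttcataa
HSP82: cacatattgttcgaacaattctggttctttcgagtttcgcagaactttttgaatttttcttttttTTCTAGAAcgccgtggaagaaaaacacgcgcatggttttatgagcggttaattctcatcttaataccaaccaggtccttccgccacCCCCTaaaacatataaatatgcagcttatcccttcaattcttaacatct
HSC82: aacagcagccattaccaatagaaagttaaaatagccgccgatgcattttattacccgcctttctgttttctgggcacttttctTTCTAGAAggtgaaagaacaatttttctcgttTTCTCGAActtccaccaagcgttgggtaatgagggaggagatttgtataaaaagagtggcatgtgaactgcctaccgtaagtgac

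The HSP12 window held 2 stress response elements, which began 232 and 190 bases before the start codon, and no heat shock element; RefSeq also annotates the reading frame YFL015C within it. In the HSP82 window a stress response element lay 149 bases and heat shock elements 235 and 67 bases before the start codon, the last outside the part printed. The HSC82 window held 3 heat shock elements, at 217, 185 and 48 bases, the last outside the part printed, and no stress response element. The HSP104 element of 3 units began 297 bases before the start codon, close to the edge of the window. These matches are descriptions of sequence, and binding was not measured.

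**Figure D1:**
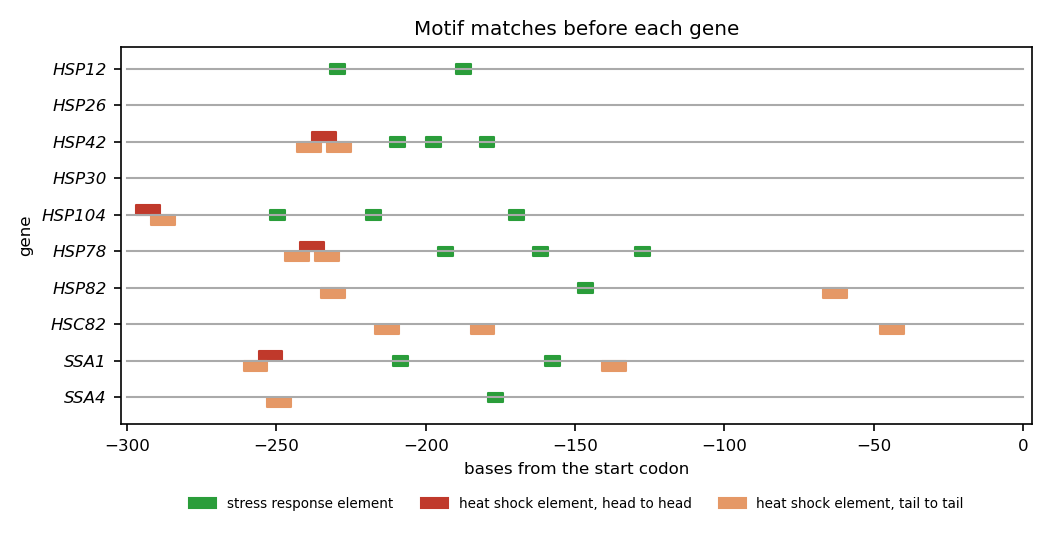
Matches of the stress response element (AGGGG or CCCCT) and of the heat shock element in its head-to-head (GAANNTTC) and tail-to-tail (TTCNNGAA) forms in the 300 bases before the start codon of each gene. The x axis gives the distance from the start codon in bases; 7 of the 10 genes have a stress response element, 7 have a heat shock element, and HSP26 and HSP30 have neither.

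Between log phase and 48 h, 8 of the 10 genes were higher and 1 was lower in the wild type, 8 were higher and 1 lower in mms2Δi, and 9 were higher and 1 lower in ysf3Δi, by edgeR's quasi-likelihood F test with Benjamini-Hochberg adjustment over all genes tested and a threshold of 0.05. Much of the transcriptome changed between the phases: of all genes tested, 32.8% were called higher and 34.3% lower in the wild type, 33.4% higher and 30.7% lower in mms2Δi, and 33.9% higher and 32.9% lower in ysf3Δi. The median log2 fold change of the 10 genes was 1.55 in the wild type, 1.47 in mms2Δi and 1.91 in ysf3Δi, where that of all genes tested was -0.01, 0.06 and 0.03. Each strain gives its own phase ratio, and 8 of the genes were higher at 48 h in 6 of 6 strains. The exceptions were HSC82, which was lower in 6 of 6 strains, and SSA4, which was higher in 4 of 6. The share of all genes that were higher in 6 of 6 strains is not given here, so this count is a description only. In the fit without wild-type strain 1, 8 of the 10 passed in the wild type, all but HSP42 and SSA4, where 25.9% of all genes were called higher and 27.8% lower. The log2 changes were then 10.74 for HSP12, 7.32 for HSP26, 3.01 for HSP82, 1.60 for SSA1, 1.20 for HSP104, 1.06 for HSP78, -1.11 for HSC82 and -0.08 for SSA4. Together the mRNAs took 0.593% to 0.936% of all counts in the log-phase libraries and 1.55% to 1.90% at 48 h.

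**Figure D2:**
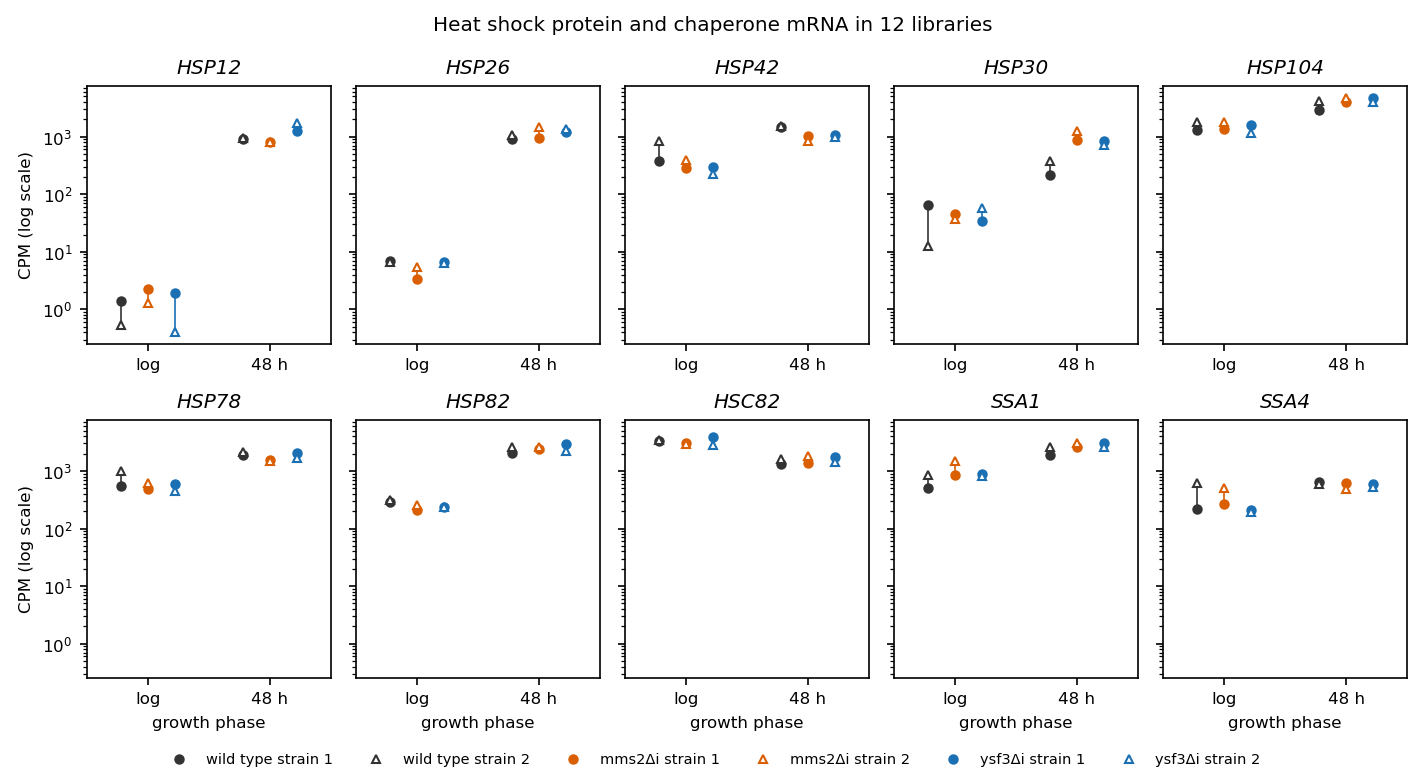
CPM of each gene in the 12 libraries on a log scale, by growth phase, with colour for genotype, filled circles for strain 1 and open triangles for strain 2, and a line joining the 2 strains of a group. HSP12 and HSP26 lie below 10 CPM in every log-phase library and at 799 CPM or more in every library at 48 h, and HSC82 is the gene whose 48 h points lie below its log points in all genotypes.

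HSP12, a small membrane-associated protein that stabilises membranes under stress, was almost silent in log phase. In the wild type it was at 1.39 and 0.539 CPM in log phase and at 899 and 953 CPM at 48 h. In mms2Δi it went from 2.30 and 1.28 to 799 and 822 CPM, and in ysf3Δi from 1.91 and 0.406 to 1244 and 1732 CPM. The phases were far apart in each of the 6 strains, with ratios from 347 to 4270, but the log-phase levels rest on 6 to 28 counts a library, so the size of the ratio is known far less well than its direction. The rise passed edgeR's test in every genotype, with an adjusted p of at most 1.72e-07. The 48 h levels were highest in the ysf3Δi strains. Their difference from mms2Δi (log2 -0.88 ± 0.34 for mms2Δi against ysf3Δi) did not pass the test, with an adjusted p of 0.765 by edgeR.

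Among the small heat shock proteins, HSP26 was switched from a trace to a high level, whereas HSP42 was already abundant in log phase and rose modestly. HSP26 encodes a chaperone that assembles into large oligomers and is activated by heat. It was at 7.01 and 6.64 CPM in log phase and 907 and 1081 CPM at 48 h in the wild type, 3.44 and 5.41 against 962 and 1449.6 CPM in mms2Δi, and 6.61 and 6.36 against 1196 and 1367 CPM in ysf3Δi. The groups of the 2 phases did not overlap in any genotype, and the 6 strain ratios ran from 129 to 280. The wild-type rise was 7.18 ± 0.29 on the log2 scale (edgeR adjusted p = 1.90e-08), where the error is the approximate standard error of the fitted change, and that of ysf3Δi was 7.63 ± 0.30 (1.40e-08).

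HSP42, whose product gathers misfolded proteins into cytosolic deposits, was at 374 and 839 CPM in log phase and 1484 and 1553 CPM at 48 h in the wild type. In mms2Δi it went from 282 and 393 to 1010.1 and 829 CPM, and in ysf3Δi from 292 and 224 to 1073 and 984 CPM. It rose in all 3 genotypes, by 1.32 ± 0.32 on the log2 scale in the wild type (edgeR adjusted p = 0.00388), 1.45 ± 0.32 in mms2Δi (0.00243) and 1.99 ± 0.33 in ysf3Δi (2.92e-04). The wild-type value moved with the log-phase library kept: it was 2.00 without that of strain 2 and 0.85 without that of strain 1. Without both libraries of strain 1 it was 0.86 with an edgeR adjusted p of 0.0535, and did not pass; over all alternatives the adjusted p ran from 6.58e-05 to 0.0535. Per base of coding sequence, from the deposited FPKM, HSP26 made up 1.37% to 4.74% of the sum of HSP26 and HSP42 in log phase. At 48 h it made up 51.7% to 75.3%.

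HSP30 encodes a plasma membrane protein that restrains the proton pump Pma1. It was at 65.8 and 12.6 CPM in log phase and 216 and 382 CPM at 48 h in the wild type, at 45.3 and 36.5 against 868 and 1278 CPM in mms2Δi, and at 34.9 and 58.2 against 831 and 728 CPM in ysf3Δi. The phases did not overlap in any genotype. The wild-type strains differed most in log phase, so that the strain ratio of 3.27 in strain 1 was the lowest of the 6 and the highest was 35.0. The rise was 2.94 ± 0.61 on the log2 scale in the wild type (edgeR adjusted p = 0.00138), 4.72 ± 0.66 in mms2Δi (8.91e-05) and 4.06 ± 0.64 in ysf3Δi (1.99e-04). The wild-type value was 4.90 without strain 1 and 2.16 without the log-phase library of strain 2, and passed under every alternative run (adjusted p from 2.01e-05 to 0.0102). The authors' deposited tables are filtered at a stricter adjusted p than the threshold used here. Their table for the wild-type phases does not list HSP30, while those for mms2Δi and ysf3Δi do. Of the 3 genotypes, the wild type also had the highest edgeR adjusted p here (0.00138). The absence from that table is therefore no evidence of a difference between genotypes.

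**Figure D3:**
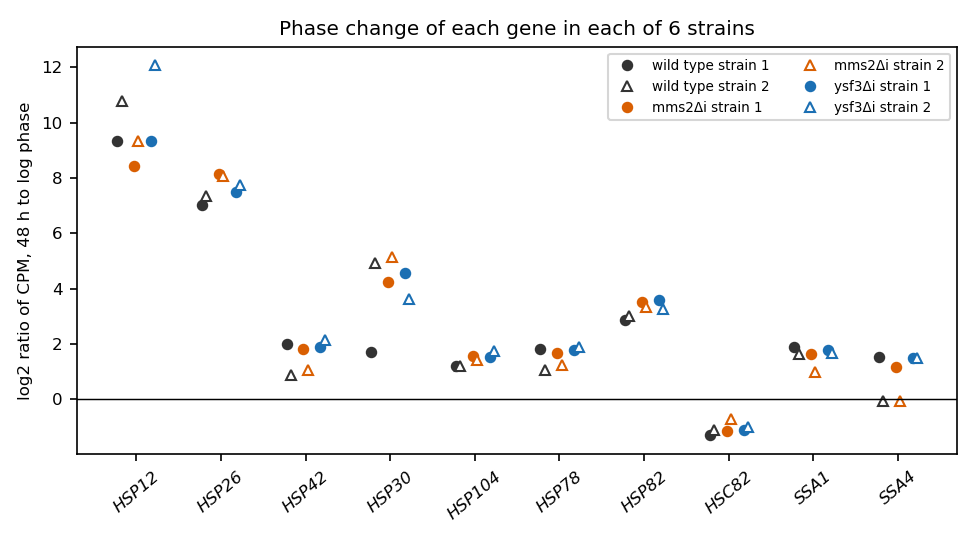
The log2 ratio of CPM at 48 h to CPM in log phase for each gene in each of the 6 strains (colour for genotype, circles for strain 1, triangles for strain 2), with a line at no change. Ratios of HSC82 lie between -1.30 and -0.71, those of SSA4 span -0.06 to 1.53, and those of the other 8 genes lie above 0 in every strain.

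The disaggregases of the cytosol and of mitochondria rose in all 3 genotypes. HSP104, the Hsp100 of the cytosol and nucleus that gives yeast its heat tolerance and propagates prions, was at 1287 and 1771 CPM in log phase and 2948 and 4139 CPM at 48 h in the wild type. It went from 1349 and 1782 to 4010.1 and 4762 CPM in mms2Δi and from 1609 and 1175 to 4685 and 3981 CPM in ysf3Δi. Strain ratios ran from 2.30 to 3.39, the narrowest range of the rising genes. The rises of 1.21, 1.49 and 1.64 on the log2 scale, each ± 0.26, all passed edgeR's test, with adjusted p-values of 0.00175, 4.91e-04 and 2.39e-04.

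HSP78, the Hsp100 of the mitochondrial matrix, was at 546 and 1009.8 CPM in log phase and 1917 and 2134 CPM at 48 h in the wild type, 495 and 628 against 1571 and 1484 CPM in mms2Δi, and 587 and 456 against 2011 and 1695 CPM in ysf3Δi. Its rises of 1.38, 1.44 and 1.83 on the log2 scale, each ± 0.27, passed edgeR's test (adjusted p = 9.32e-04, 7.44e-04 and 1.40e-04). HSP78 made up 25.9% to 42.1% of the summed FPKM of the pair over the 12 libraries. The coding sequences are 54.8% identical, with no identical run longer than 17 bases.

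The 2 Hsp90 genes changed in opposite directions in every strain. HSC82, the constitutive gene, fell from 3267 and 3434 CPM in log phase to 1327 and 1615 CPM at 48 h in the wild type, from 3077 and 2963 to 1385 and 1808 CPM in mms2Δi, and from 3850.1 and 2840.2 to 1781 and 1437 CPM in ysf3Δi. HSP82, the stress-inducible gene, rose from 285 and 318 to 2079 and 2599.9 CPM in the wild type, from 206 and 259 to 2387 and 2593 CPM in mms2Δi, and from 239.7 and 233 to 2892 and 2249 CPM in ysf3Δi. For both genes the phases were well separated in each genotype.

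HSC82 fell by 1.19 ± 0.22 on the log2 scale in the wild type, 0.92 ± 0.22 in mms2Δi and 1.06 ± 0.22 in ysf3Δi, and HSP82 rose by 2.95 ± 0.20, 3.42 ± 0.21 and 3.44 ± 0.21; edgeR's adjusted p was at most 0.00322 for HSC82 and 4.48e-07 for HSP82. HSP82 accounted for 5.86% to 8.48% of the counts of the pair in log phase and 58.9% to 63.3% at 48 h, so the 2 phases did not overlap and the 12 libraries fell into narrow ranges. The share in FPKM was nearly the same, since the genes are 2130 and 2118 bases long. Their coding sequences are 91.8% identical with an identical run of up to 113 bases, and the proteins 97% identical. How the authors' counting treated reads that match both genes is not given in the sources used here, so the split between them is uncertain.

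**Figure D4:**
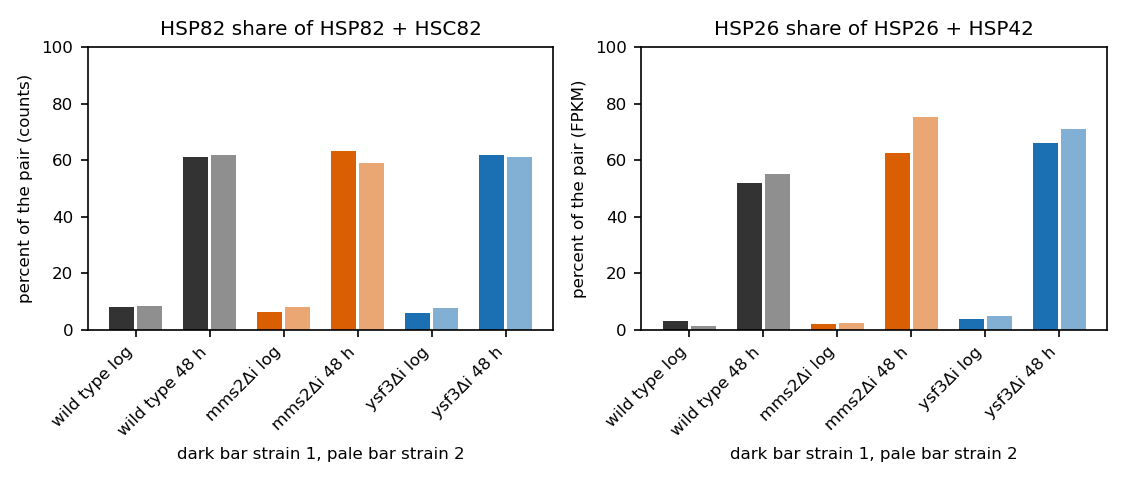
Left, HSP82 as a percentage of the counts of HSP82 and HSC82 together; right, HSP26 as a percentage of the summed FPKM of HSP26 and HSP42; each bar is 1 library, dark for strain 1 and pale for strain 2. HSP82 goes from at most 8.48% in log phase to at least 58.9% at 48 h, and HSP26 from at most 4.74% to at least 51.7%, in every genotype.

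Of the cytosolic Hsp70 genes, SSA1 rose in all genotypes and SSA4 in ysf3Δi. SSA1, which is expressed during growth and folds, translocates and targets many proteins, was at 512 and 841 CPM in log phase and 1885 and 2596 CPM at 48 h in the wild type. In mms2Δi it went from 845 and 1519 to 2639 and 3001 CPM, and in ysf3Δi from 903 and 817 to 3119 and 2618 CPM. Its rise was 1.73 on the log2 scale in the wild type, 1.25 in mms2Δi and 1.74 in ysf3Δi, each ± 0.31 (edgeR adjusted p = 5.42e-04, 0.00429 and 5.32e-04).

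SSA2 is a near copy of SSA1, with 96.4% identity and an identical run of 383 bases, which is longer than the 200-nt fragments, so the split of counts between them is uncertain. It moved the other way. SSA2 was at 1594 and 1644 CPM in log phase and 883 and 1054 CPM at 48 h in the wild type, and its fall of 0.74 ± 0.21 on the log2 scale passed edgeR's test with an adjusted p of 0.00878, but stood at -0.67 with 0.105 without wild-type strain 1. In mms2Δi SSA2 went from 2292 and 3195 to 922 and 972 CPM, and in ysf3Δi from 2119 and 2519.7 to 1149 and 883 CPM. The genes are 1929 and 1920 bases long, and in each of the 6 strains SSA1 lay below SSA2 in CPM in log phase and above it at 48 h.

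SSA4, known as an Hsp70 gene with little basal expression and strong induction by heat, was the least regular of the 10. Here SSA4 was not near silent in log phase. By mean FPKM it ranked 770 in the wild type, 768 in mms2Δi and 1395 in ysf3Δi among 6796 genes. It was at 218 and 607 CPM in log phase and 631 and 585 CPM at 48 h in the wild type, at 271 and 514 against 612 and 493 CPM in mms2Δi, and at 209 and 191 against 596 and 534 CPM in ysf3Δi. The log-phase libraries of strain 2 of the wild type and of mms2Δi were already at the 48 h level, and the other 4 were well below it. The change was 0.56 ± 0.40 on the log2 scale in the wild type (edgeR adjusted p = 0.237) and 0.49 ± 0.40 in mms2Δi (0.299), and only the 1.50 ± 0.41 of ysf3Δi passed (0.00731). Leaving out 1 library changes these calls: without the log-phase library of wild-type strain 2 the wild-type change was 1.46 with an edgeR adjusted p of 0.00467, and without that of ysf3Δi strain 2 the ysf3Δi change was 1.35 with 0.0526. Over all alternatives the adjusted p ran from 0.00467 to 0.993 in the wild type and from 2.21e-04 to 0.0526 in ysf3Δi. In mms2Δi the change was 0.10 without the log-phase library of strain 1 and 1.02 without that of strain 2, and did not pass in either case. The ysf3Δi change exceeded the wild-type change by 0.94 ± 0.57, a difference that did not pass (edgeR adjusted p = 0.905), and by 1.54 (0.448) without wild-type strain 1.

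Spread within log phase was not unique to SSA4. In the wild type, strain 2 was above strain 1 in log phase for HSP42 (839 against 374 CPM), HSP78 (1009.8 against 546), SSA1 (841 against 512) and SSA4 (607 against 218), and below it for HSP30 (12.6 against 65.8). BTN2, another aggregate-sorting factor, showed the same order, at 523 against 224 CPM. In mms2Δi, strain 2 was also above strain 1 in log phase for HSP42 (393 against 282 CPM), HSP78 (628 against 495), SSA1 (1519 against 845) and SSA4 (514 against 271). It was below it for HSP30 (36.5 against 45.3). In ysf3Δi the order was the opposite for HSP42 (224 against 292 CPM), HSP78 (456 against 587), SSA1 (817 against 903), SSA4 (191 against 209) and HSP30 (58.2 against 34.9). The 2 wild-type strains also differ in mating-type genes, and whether that bears on the wild-type levels was not tested.

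Per base of coding sequence, the length used in the deposited FPKM of these genes, the order of the 10 changed between the phases, most for HSP12, HSP26 and HSC82. In the deposited FPKM, HSC82 was first in log phase in every genotype, at 1686 ± 41.8 (SD, n = 2) in the wild type, 1378 ± 51.8 in mms2Δi and 1495 ± 240.4 in ysf3Δi, and lay above the next gene in both libraries. HSP12 had the lowest mean, at 3.12 ± 1.98, 5.25 ± 2.16 and 3.26 ± 2.89 FPKM. In mms2Δi it overlapped HSP26, and in strain 1 it lay above it. In the wild type the 5 genes that followed HSC82, from HSP104 at 597 ± 128 FPKM to SSA4 at 227 ± 149.8, overlapped each with its neighbour in the order, and SSA4 also overlapped HSP82 at 151 ± 9.94 FPKM. HSP30 at 42.0 ± 40.6 FPKM and HSP26 at 11.3 ± 0.549 FPKM lay below all of these.

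At 48 h HSP12 was first in every genotype, at 3009 ± 70.8 FPKM in the wild type, 2354 ± 105 in mms2Δi and 4487 ± 1123 in ysf3Δi. HSP26 came second at 1650.5 ± 176, 1775 ± 397 and 1975 ± 224 FPKM, and in the wild type and mms2Δi it overlapped HSP104. In the wild type HSP42, HSP104, SSA1 and HSP82 followed, from 1444 ± 21.4 to 1176 ± 165 FPKM, each overlapping the next, and HSP78 (891 ± 52.3), HSC82 (744 ± 90.4) and SSA4 (338 ± 23.9) came after them. HSP30 was last in the wild type, at 234 and 405 FPKM, and overlapped SSA4. In the deletions its place was higher, at 1021 ± 211 FPKM in mms2Δi and 774 ± 58.0 in ysf3Δi, and SSA4 was last. Among 6796 genes with an FPKM, HSP12 moved from rank 5521 to rank 63 in the wild type, HSP26 from 4865 to 93, HSP82 from 1112 to 122 and HSC82 from 133 to 180.

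Whether the intron deletions altered these genes was asked in each phase. In log phase, 0 of the 10 genes passed edgeR's test in mms2Δi against the wild type, where 13.9% of all genes were called higher and 13.3% lower; 3 of the 10 had an unadjusted p under 0.05, and DESeq2 called 2. In ysf3Δi against the wild type, 0 were higher and 1 was lower, where 13.7% of all genes were called higher and 13.5% lower; 2 of the 10 had an unadjusted p under 0.05, and DESeq2 called 2. At 48 h, 0 of the 10 passed in mms2Δi (8.54% of all genes higher, 2.09% lower), with 2 at an unadjusted p under 0.05 and 1 called by DESeq2, and 0 passed in ysf3Δi (2.49% higher, 0.28% lower), with 1 at an unadjusted p under 0.05 and 0 called by DESeq2. The 4 comparisons share the wild-type libraries of their phase.

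The gene that passed was HSP42 in log-phase ysf3Δi, although the authors' deposited table for this comparison, filtered at a stricter adjusted p, does not list it. Its levels there, 292 and 224 CPM, lay below the wild-type 374 and 839 CPM, a difference of -1.23 ± 0.32 on the log2 scale (edgeR adjusted p = 0.0197). The high library of wild-type strain 2 carries much of this: without it the value was -0.53 with an adjusted p of 0.248, without the second ysf3Δi log library it was -1.01 with 0.105, and without wild-type strain 1 it was -1.68 with 0.0085, in a range of 9.35e-04 to 0.248 over all alternatives. In mms2Δi the log-phase difference of HSP42 was -0.85 ± 0.32 (edgeR adjusted p = 0.0705), and without wild-type strain 1 it was -1.30 (0.0185), in a range of 0.0173 to 0.748 over all alternatives. At 48 h the 4 deletion libraries, at 829 to 1073 CPM, all lay below the wild-type 1484 and 1553 CPM, which is a description only. The differences were -0.72 ± 0.32 in mms2Δi and -0.56 ± 0.32 in ysf3Δi, and did not pass (edgeR adjusted p = 0.15 and 0.34). Without wild-type strain 1 they were -0.78 and -0.59 (0.273 and 0.647).

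HSP30 was the gene with the largest difference from the wild type at 48 h in either deletion. All 4 deletion libraries, at 728 to 1278 CPM, were above the wild-type 216 and 382 CPM. This separation is a description only, since the share of all genes that separate so is not given. The differences were 1.84 ± 0.58 on the log2 scale in mms2Δi and 1.38 ± 0.57 in ysf3Δi, with edgeR adjusted p-values of 0.0654 and 0.206, so neither passed in the fit over 12 libraries. Of 19 alternatives, 4 called the difference in mms2Δi and 3 that in ysf3Δi. DESeq2 called the one in mms2Δi (1.82, adjusted p = 0.0394), and a fit on the libraries compared alone called both (edgeR adjusted p = 0.0347 and 0.00897). The remaining calls came from fits that left out a wild-type log-phase library, which is not part of the comparison at 48 h. Over all alternatives the adjusted p ran from 0.0153 to 0.422 in mms2Δi and from 0.00897 to 0.863 in ysf3Δi. The authors' deposited tables list HSP30 in both comparisons at 48 h, with a log2 fold change of 1.57 (standard error 0.25) for mms2Δi and 1.22 (0.19) for ysf3Δi. In log phase the deletion libraries, at 34.9 to 58.2 CPM, lay between the 2 wild-type strains. Without wild-type strain 1 the log-phase difference was 1.71 in mms2Δi and 1.90 in ysf3Δi (edgeR adjusted p = 0.0171 and 0.0105, the lowest in ranges up to 0.951 and 0.915 over all alternatives), and the difference at 48 h was 1.46 and 1.03 (0.174 and 0.39).

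**Figure D5:**
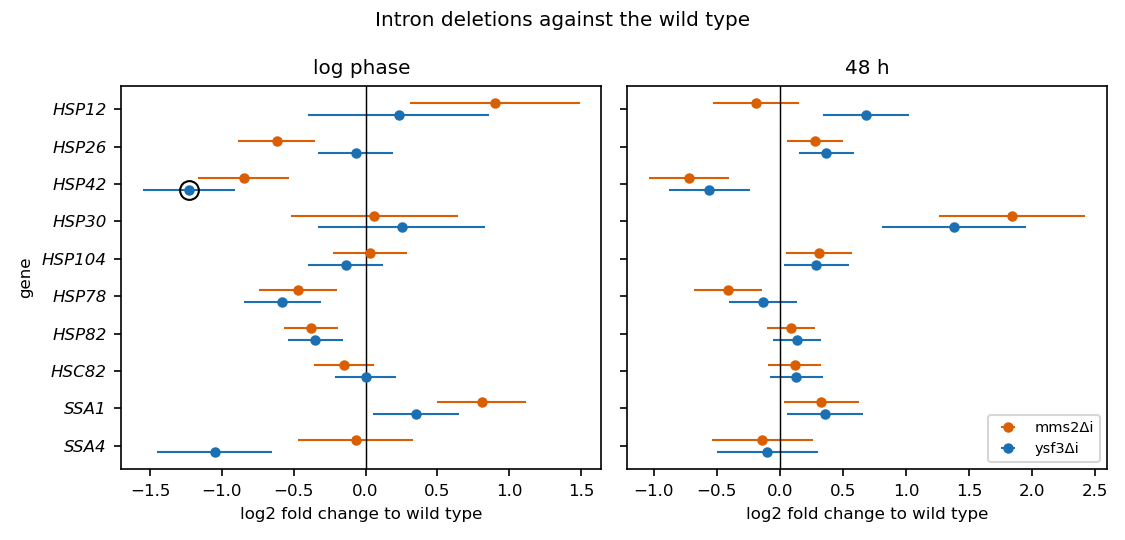
Log2 fold change of each gene in mms2Δi and ysf3Δi against the wild type, in log phase (left) and at 48 h (right), with bars for the approximate standard error. The ringed point, HSP42 in ysf3Δi in log phase, is the value that passed the test, and HSP30 at 48 h has the largest values, 1.84 and 1.38.

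For the other 8 genes the differences from the wild type did not pass the test. At 48 h the 4 deletion libraries also lay above the wild type for SSA1 (2618 to 3119 against 1885 to 2596 CPM). In log phase they lay below it for HSP26 (3.44 to 6.61 against 6.64 to 7.01 CPM) and HSP82 (206 to 259 against 285 to 318 CPM). The share of all genes that separate in this way, as HSP42 and HSP30 do at 48 h, is not given here. SSA1 differed in log-phase mms2Δi by 0.81 ± 0.31 (edgeR adjusted p = 0.0712). This value depended on the library kept: without 1 log-phase library it was 0.32 (mms2Δi strain 2), 1.17 (mms2Δi strain 1) or 1.20 (wild-type strain 2). Without both libraries of wild-type strain 1 it was 0.51 (edgeR adjusted p = 0.3), and over all alternatives the adjusted p ran from 0.0239 to 0.541. SSA4 differed in log-phase ysf3Δi by -1.05 ± 0.40 (edgeR adjusted p = 0.0751), and DESeq2 called it (0.0234), but without the log-phase library of wild-type strain 2 it was -0.12 (0.844), and over all alternatives the adjusted p ran from 0.0104 to 0.844. HSP26 differed in log-phase mms2Δi by -0.62 ± 0.27 (edgeR adjusted p = 0.101), and by -0.56 (0.242) without wild-type strain 1. HSP82 and HSC82 differed from the wild type by -0.38 to 0.14 on the log2 scale in any of these comparisons, and HSP104 by -0.14 to 0.31; without wild-type strain 1 the ranges were -0.44 to 0.00 and -0.33 to 0.07. Without wild-type strain 1, 3 of the 10 genes passed in log-phase mms2Δi (HSP42, HSP30 and HSP78, the last at -0.83) and 4 in log-phase ysf3Δi (HSP42, HSP30, HSP78 at -0.93 and SSA4 at -1.59), in a fit where wild-type strain 2 stands alone and is assumed to vary like the other groups. In that fit 12.3% of all genes were called higher and 9.34% lower in log-phase mms2Δi, and 13.1% higher and 10.1% lower in log-phase ysf3Δi.

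No difference between the deletions, or between their phase changes and that of the wild type, passed the test. Between mms2Δi and ysf3Δi in log phase, 0 of the 10 genes passed edgeR's test (0% of all genes higher and 0% lower), with SSA4 alone at an unadjusted p under 0.05 and 0 genes of the 10 called by DESeq2. At 48 h, 0 of the 10 passed (0% of all genes higher and 0% lower), with HSP12 alone at an unadjusted p under 0.05 and 0 called by DESeq2. The phase change of mms2Δi against that of the wild type gave 0 of the 10 (0% of all genes higher and 0% lower), with 1 of the 10 at an unadjusted p under 0.05, HSP26 at 0.90 ± 0.34 (edgeR adjusted p = 0.504; 0.69 with 0.58 without wild-type strain 1), and 0 called by DESeq2. For ysf3Δi it gave 0 of the 10 (0% of all genes higher and 0% lower), with 0 at an unadjusted p under 0.05 and 0 called by DESeq2. The largest of these differences was that of HSP30 in mms2Δi, 1.78 ± 0.81 (edgeR adjusted p = 0.532), which was -0.25 (0.842) without wild-type strain 1.

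Other chaperones and their partners were counted by class, in lists that were written knowing earlier results of these data. No test between classes was run, and the counts stand beside the 32.8% of all genes that were called higher and 34.3% lower in the wild type. The wild-type counts and values by class include wild-type strain 1. Without it the wild-type log2 changes were -2.11 for CCT5, -2.71 for SSB1, 2.80 for SSE2 and 1.11 for STI1. They were -2.60 for PPT1, 1.79 for HSF1, 3.81 for GIS1 and 0.94 for MSN4. The 16 genes of the CCT chaperonin, prefoldin and the mitochondrial Hsp60 system were mostly lower at 48 h: 2 rose and 14 fell in each of the 3 genotypes, with a median log2 fold change of -1.47 in the wild type. Among them CCT5, a subunit of the ring that folds actin and tubulin, was at 366 and 374 CPM in log phase and 74.9 and 87.8 CPM at 48 h in the wild type, and fell by 2.18 ± 0.13 on the log2 scale (edgeR adjusted p = 1.79e-07). TCP1 fell by 1.99 and CCT3 by 1.91.

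The 12 other Hsp70 and Hsp110 genes split evenly in the wild type, with 6 higher and 6 lower (6 and 5 in mms2Δi and in ysf3Δi). The ribosome-bound Hsp70 SSB1 fell from 1026 and 795 to 81.3 and 124 CPM in the wild type, by 3.15 ± 0.23 on the log2 scale, and its partner SSZ1 fell by 2.54 ± 0.20; SSB1 has a near-identical copy, SSB2, so its counts are uncertain. The Hsp110 gene SSE2, an exchange factor for Hsp70, rose from 149 and 135 to 975 and 957 CPM, by 2.77 ± 0.15. Of the 26 J-proteins and nucleotide exchange factors, in the wild type 6 rose and 11 fell (6 and 9 in mms2Δi, 8 and 9 in ysf3Δi), among them ZUO1, the J-protein of the ribosome-associated complex with SSZ1, which fell by 2.13, and the translocon J-protein SEC63, which fell by 2.16, while JID1 rose by 2.42.

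Of the 12 Hsp90 cochaperones, in the wild type 4 rose and 4 fell, 4 and 3 in mms2Δi, and 5 and 4 in ysf3Δi. With wild-type strain 1 included, the wild-type shares are near those of all genes. The counts depend in part on that strain: the rise of AHA1 was 1.09 on the log2 scale with it and 0.74 without it. STI1, which joins Hsp70 to Hsp90, went from 534 and 621 to 1081 and 1361 CPM in the wild type and rose by 1.08 ± 0.18, while the phosphatase PPT1 fell from 242 and 258 to 40.5 and 43.4 CPM, by 2.57 ± 0.13, and the cyclophilin CPR7 fell by 2.00. Of the 10 sequestrases and other heat shock genes, in the wild type 7 rose and 2 fell, 6 and 2 in mms2Δi, and 7 and 2 in ysf3Δi. HSP31, a glyoxalase of the DJ-1 family, rose by 1.99 ± 0.21; MRH1, a membrane protein related in sequence to Hsp30, fell from 685 and 850.2 to 54.3 and 38.8 CPM, by 4.06 ± 0.27; the mitochondrial MCX1 fell by 1.34.

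Of 7 stress regulators, 5 were higher at 48 h in the wild type and in mms2Δi and 6 in ysf3Δi. HSF1 went from 84.6 and 81.8 to 277 and 288 CPM in the wild type, a rise of 1.76 ± 0.21 (edgeR adjusted p = 2.17e-05). GIS1, a zinc finger factor of the entry into stationary phase, rose by 3.69 ± 0.29, and the kinase RIM15 by 1.46 ± 0.27. MSN2 was at 80.4 and 83.8 CPM in log phase in the wild type, and its change of 0.54 ± 0.24 did not pass (edgeR adjusted p = 0.069). MSN4 rose by 0.66 ± 0.18 (edgeR adjusted p = 0.00683).

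Against the wild type, of the 12 other Hsp70 and Hsp110 genes 4 were higher and 1 lower in mms2Δi in log phase and 3 higher at 48 h, and 2 were higher in ysf3Δi in each phase. Over all genes the shares higher and lower were 13.9% and 13.3% in mms2Δi and 13.7% and 13.5% in ysf3Δi in log phase, and 8.54% and 2.09%, and 2.49% and 0.28%, at 48 h. SSB1 was higher in both deletions in both phases, by 1.13 and 1.42 on the log2 scale in mms2Δi and 1.43 and 1.38 in ysf3Δi (log phase, then 48 h). Of the 26 J-proteins and exchange factors, 2 were higher and 3 lower in mms2Δi in log phase and 2 higher at 48 h, and 6 were lower in ysf3Δi in log phase; of the 16 chaperonin and prefoldin genes, 2 were higher and 2 lower in log phase and 2 higher at 48 h in mms2Δi, and 2 were higher and 3 lower in log phase and 1 higher at 48 h in ysf3Δi. HSP10, the mitochondrial co-chaperonin, was higher by 2.00 and 2.30 in mms2Δi and 2.47 and 1.85 in ysf3Δi, at levels of only 0.898 to 4.91 CPM in the wild-type libraries and 4.02 to 22.3 CPM in the deletions. Of the 12 Hsp90 cochaperones 2 were lower in log-phase ysf3Δi, AHA1 at -0.59 and PIH1 at -0.55. Of the 10 sequestrases and other heat shock genes, 1 was lower in log-phase mms2Δi and 3 in log-phase ysf3Δi. CUR1 was lower in both deletions in log phase, at -0.76 in mms2Δi and -0.81 in ysf3Δi, and BTN2 was lower in ysf3Δi, at -1.18. Among the regulators MSN4 was higher in mms2Δi at 48 h, by 0.64. Of the genes of the 6 lists called in log phase, 10 of 15 in mms2Δi and 14 of 18 in ysf3Δi also passed without wild-type strain 1. Among those named, SSB1, HSP10, AHA1, PIH1, CUR1 and BTN2 passed (edgeR adjusted p from 0.00734 to 0.0438). The calls that were lost were SSA2, SSC1, SSQ1, HSP60 and CCT4 in mms2Δi and SEC63, CCT4, CCT8 and MCX1 in ysf3Δi, named after their values were seen. The 8 calls in mms2Δi and 3 in ysf3Δi at 48 h were lost, as were those of all other genes in these comparisons: SSB1 was at 1.13 in mms2Δi and 1.12 in ysf3Δi (edgeR adjusted p = 0.174 and 0.298), HSP10 at 1.90 and 1.48 (0.174 and 0.298) and MSN4 in mms2Δi at 0.49 (0.32).

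The gene most alike each of the 10 was sought as the highest Pearson correlation of log2(CPM + 1) over the 12 libraries. The search covered 4778 genes outside the 10 that had a gene symbol and a mean of at least 10 CPM. Pairs within the 10 were left out of it, although r was 1.00 between HSP26 and HSP82 and 0.89 between HSP42 and SSA4. Log-phase and 48 h libraries form separate clusters, so the measure follows mainly the change of phase, and it is given as a description. HSP12 was most like FOX2, an enzyme of peroxisomal fatty acid oxidation (r = 0.999), HSP26 like GID11 (0.998) and HSP82 like ATG39, a receptor for autophagy of the nucleus (0.997). Each of these 3 had many genes at an r of 0.95 or more (625, 647 and 628). HSP78 was most like BTN2 (0.983), HSP30 like YRO2, a membrane protein of the same family (0.987), HSP104 like INO1, which makes inositol phosphate (0.985), and HSC82 like FUN26, a vacuolar nucleoside transporter (0.984). HSP42 was most like TFC3, a subunit of the RNA polymerase III factor TFIIIC (0.976), with 40 genes at that level, and SSA1 like BUD7 (0.977), with 60. SSA4 reached 0.887 with ASI3 and had 0 genes at 0.95 or more.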

How the data were processed

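RNA was measured in 12 libraries, 2 strains of each of 3 genotypes in 2 phases. Per the submitters' processing notes, Bowtie2, HTSeq and DESeq2 were used with sacCer3; versions and the strand setting are not given in the sources used here. The authors deposited raw counts per gene, FPKM (here, counts scaled by gene length and library total), and filtered tables of log2 fold changes with adjusted p-values.

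Genes kept by filterByExpr (6068 of 7126) were scaled by TMM and tested with edgeR 4.0.16 (R 4.3.3) in 1 quasi-likelihood fit of 6 group means over 12 libraries (6 residual degrees of freedom). CPM are counts scaled to the TMM-adjusted library size. The error of a log2 fold change is its size divided by the square root of F. The procedure was tested on simulated data. Libraries of a group differed by more than sampling noise (chi-square per degree of freedom 15.8 to 118). The same strain was sampled in both phases, per the labels, so phase comparisons are paired by strain; residuals of a strain correlated between phases by -0.164, 0.0605 and 0.0374 in the wild type, mms2Δi and ysf3Δi. Alternatives were DESeq2 1.42.0 (Wald test or size factors), library totals, no filter, only the libraries compared, blocks, and leaving out libraries.

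The 10 genes and all lists were chosen with earlier results of these data known. Named were the 10 genes, up to 3 genes of each other list by adjusted p in the wild-type phase comparison, up to 2 called in each deletion, and the most alike gene; SSA2, BTN2, MSN2 and MSN4 were added in the phase comparison after their values were seen. Windows and identities come from RefSeq R64. All 10 genes are single coding segments with no overlapping RefSeq gene; 964 feature IDs had no match there, and overlap with them was not checked.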

Additional observations from a re-analysis of the deposited data

How the results depend on the processing

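Over 19 alternatives a comparison, none of the 10 genes reversed a call. Of 190 values each, calls changed in 2 for the wild-type phase change, 1 for ysf3Δi and 0 for mms2Δi, and 0 between the deletions and between phase changes. With the strain as a block, calls among the 10 were 9, 9 and 10, as without it, over 3819, 3605 and 3830 genes.

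Genes called were 645 for mms2Δi against the wild type at 48 h, but 978 with DESeq2's Wald test, 235 with only the libraries compared, 390 with the replicate number as a block, 0 without wild-type strain 1, and 0 to 842 leaving out a library. For ysf3Δi at 48 h the count of 168 became 452, 547, 0 and 0 under these, and 0 to 282. In log phase the 1651 of mms2Δi became 0 to 2029 leaving out a library, and the 1652 of ysf3Δi 38 to 1603, and 620 with only the libraries compared. Counts of 0 became 11 (mms2Δi against ysf3Δi, 48 h), 4 (log phase) and 15 (mms2Δi phase change) with the Wald test, and leaving out a library gave at most 1, 0 and 2, and 3 for the ysf3Δi phase change. The replicate numbers mark no shared strain across genotypes, and with them as a block 0 (mms2Δi) and 1 (ysf3Δi) of the 10 passed in log phase and 0 at 48 h.

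Of the 10 genes, the 0 called in log-phase mms2Δi became 3 with library totals, 2 with the Wald test and 3 without wild-type strain 1 (0 to 3 leaving out a library), and the 1 of ysf3Δi became 4, 2 and 4, and 0 with only the libraries compared (0 to 4). At 48 h, 1 passed with the Wald test in mms2Δi and 1 with only the libraries compared in each deletion (0 to 1 leaving out a library). Library totals moved the median of all genes by -0.14 and -0.16 in log phase and -0.17 and -0.11 at 48 h; relative to that shift, HSP26 at -0.76 and HSP82 at -0.52 in log-phase mms2Δi stood near their main values. The cause was not tested. Depth limits HSP12 in log phase, where a library held 6 to 28 counts.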
